A study of Homo sapiens with 18 samples.

Results

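Genes that decide whether a cell leaves G1 were followed in OVCAR-3 cells treated with a BET inhibitor. They are the D cyclins CCND1, CCND2 and CCND3, the E cyclins CCNE1 and CCNE2, the kinases CDK4, CDK6 and CDK2, the retinoblastoma gene RB1, and FBXW7. These 10 genes were found by matching the Ensembl identifiers of both count tables to symbols, among 58825 genes in all, and the matching used no measured value. OVCAR-3 is an established line of high-grade serous ovarian cancer, known to carry an amplified CCNE1. The cells were grown in 12-well plates and received 1 µM i-BET858, 1 µM i-BET151 or the vehicle DMSO for 4 or 24 h, in stripped media. Each of the 6 conditions had 3 biological replicates, so that 18 libraries of poly-A RNA were sequenced, all from this single line.

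Cyclins have no activity of their own and act by binding a kinase. D cyclins, made in response to growth signals, pair with CDK4 and CDK6, and E cyclins, made later in G1, pair with CDK2. These kinases phosphorylate the RB1 protein, which otherwise holds E2F transcription factors silent, and so release the genes of DNA synthesis. FBXW7 is the subunit of a ubiquitin ligase that recognises cyclin E and marks it for destruction. The values below are transcript levels only, and neither protein nor kinase activity was measured here.

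Library totals ran from 27323969 to 46299994 counts, with a median of 32267434. Libraries of replicate 3 stood apart in every condition, with a count in 17817 to 20642 genes against 23674 to 24947 genes in replicates 1 and 2, so calls of the 10 genes are also given without replicate 3 where that changed them. All 10 serous and epithelial markers were present in all 18 libraries, among them PAX8 at 387 to 612 CPM (counts relative to the scaled library total) and KRT8 at 3739 to 7365 CPM. Their summed level was 8641.3 to 10073 CPM with DMSO, 9694.2 to 10294 with i-BET151 and 11626.4 to 12154.9 with i-BET858 at 4 h, and 8640.7 to 10134.2, 6783.8 to 7277.8 and 6788.9 to 7164.2 CPM at 24 h. KRT8 made up most of this sum, and the markers did not move as one: with i-BET858 at 24 h KRT7, KRT8, KRT18 and FOLR1 fell, CDH1 rose from 223 to 483 CPM, and PAX8 gave −0.02 ± 0.12 (adjusted p = 0.898) and WT1 −0.08 ± 0.08 (0.486). Among 9 markers of fibroblasts, leukocytes and endothelium, CD68 was at 0 in 17 libraries and CD3E in 16, DCN did not exceed 0.073 CPM, and COL1A1 lay at 21.05 to 46.65 CPM. With i-BET858 at 24 h 1 of the 4 tested markers fell, where 21.3% of all genes fell. COL1A2 averaged 1.002 CPM with DMSO and 0.2321 CPM with i-BET858 at that time. The 9 summed to 25.3 to 46.4 CPM with DMSO at 4 h, 28.9 to 55.4 with i-BET151 and 33.4 to 51.5 with i-BET858, and to 31.2 to 39.8, 24.1 to 32.0 and 22.9 to 34.4 CPM at 24 h. The part of either list in the results was not tested. CPM were scaled with TMM factors, and a gene was called when edgeR's quasi-likelihood test gave a Benjamini-Hochberg adjusted p under 0.05 over all genes tested. In these bulk samples, fewer cells with a transcript and less of it per cell cannot be told apart.

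The 10 genes differed widely in level. Per kilobase of exon, the most abundant were CCND1 with 83.09 ± 10.7 CPM per kb (SD, n = 3) in DMSO at 4 h, CCNE1 with 67.25 ± 3.23 and CDK4 with 50.44 ± 5.68. CCND1, CCNE1 and CDK4 stood at percentiles 97.4, 96.7 and 95.4 of 18091 genes, where CCND1 and CCNE1 did not overlap and neither did CCNE1 and CDK4. CDK6 followed at 13.18 ± 1.85 CPM per kb, then CDK2 at 7.392 ± 1.31, CCND3 at 6.911 ± 0.94 and RB1 at 6.481 ± 0.411, 3 levels that differed by less than their spread. FBXW7 at 2.167 ± 0.12 and CCNE2 at 1.831 ± 0.191 CPM per kb lay near the middle of all genes, at percentiles 48.5 and 45.8. The order at 24 h in DMSO began with CCNE1 at 70.31 ± 3.57 CPM per kb, while CDK4 at 51.57 ± 12.3 and CCND1 at 51.28 ± 3.87 differed by less than their spread.

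CCND2 had no counts in 15 of 18 libraries. It had 1 count in i-BET151 replicate 2 at 24 h, 2 counts in i-BET858 replicate 1 and 1 count in i-BET858 replicate 2 at the same time, too few to be tested. In the 15 libraries at 0, a count of 0 allows a level of up to 0.0732 to 0.109 CPM (3 counts, counting error only). CCND2 was thus seen only as these 4 counts, and 9 of the 10 genes were tested in every comparison.

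On GRCh38 with the gene models of GENCODE 44, CCNE1 (ENSG00000105173) lies at chr19:29811991-29824312 on the forward strand and CCND1 (ENSG00000110092) at chr11:69641156-69654474. CDK6 (ENSG00000105810) spans chr7:92604921-92836573, CDK4 (ENSG00000135446) chr12:57747727-57756013, CDK2 (ENSG00000123374) chr12:55966781-55972789 and CCND3 (ENSG00000112576) chr6:41934934-42050357. RB1 (ENSG00000139687) lies at chr13:48303744-48599436 and FBXW7 (ENSG00000109670) at chr4:152320544-152536092, while CCND2 (ENSG00000118971) is at chr12:4269771-4305353. CCNE2 has the identifier ENSG00000175305. CCNE1 and RB1 share no exon bases with another gene of that annotation. The exons of the other 8 overlap a gene on the opposite strand, by 497 bases with LTO1 for CCND1, 1629 with INTS8 for CCNE2, 1369 with TSPAN31 for CDK4 and 565 with ENSG00000258554 and 89 with PMEL for CDK2, and CCND2 also shares 999 bases with a gene on its own strand. Whether counting used strand is not given in the sources used here, so reads from those stretches could be shared or lost.

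The sequences before a RefSeq start site of CCNE1, CDK6 and CDK4 are shown. At 4 h CCNE1 and CDK6 moved most among the abundant members, in opposite directions, and CDK4 is the kinase partner to set beside CDK6. Each is the 250 bases before the RefSeq start site on GRCh38.p14, written 5′ to 3′ on the strand of the gene, at chr19:29811741-29811990 (forward), chr7:92836574-92836823 (reverse) and chr12:57752311-57752560 (reverse). Capitals mark the E-box CACGTG, the site of MYC and related factors, and the GC box GGGCGG, read on both strands as GGGCGG or CCGCCC.
CCNE1: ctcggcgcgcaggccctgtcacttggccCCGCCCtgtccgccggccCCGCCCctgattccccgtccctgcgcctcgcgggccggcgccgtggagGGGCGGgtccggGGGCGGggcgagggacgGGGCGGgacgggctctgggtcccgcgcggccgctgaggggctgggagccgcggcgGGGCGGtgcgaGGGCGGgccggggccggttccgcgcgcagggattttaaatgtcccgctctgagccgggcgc
CDK6: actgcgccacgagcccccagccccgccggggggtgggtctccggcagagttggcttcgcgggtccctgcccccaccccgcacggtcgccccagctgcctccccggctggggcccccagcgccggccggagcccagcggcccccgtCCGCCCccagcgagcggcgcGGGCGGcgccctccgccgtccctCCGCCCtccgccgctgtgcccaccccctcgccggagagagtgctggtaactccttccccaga
CDK4: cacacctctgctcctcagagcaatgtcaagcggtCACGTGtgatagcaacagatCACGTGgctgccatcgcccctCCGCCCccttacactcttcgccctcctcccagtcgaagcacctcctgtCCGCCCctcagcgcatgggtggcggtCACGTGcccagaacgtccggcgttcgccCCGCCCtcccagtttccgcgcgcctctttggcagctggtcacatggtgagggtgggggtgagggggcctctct
The CCNE1 stretch held 7 GC boxes and no E-box. The CDK6 stretch held 3 GC boxes, with an E-box only 30 bases after the start site, and the CDK4 stretch held 3 GC boxes and 3 E-boxes, starting 216, 196 and 101 bases before the start site. In windows of 250 bases before to 50 after the start, 45% of 35116 RefSeq promoters held a GC box, 7.26% an E-box and 0.094% at least 3 E-boxes. CCND3, RB1 and FBXW7 also had an entry, with 5, 0 and 2 GC boxes and no E-box. The printed CDK4 stretch and the windows of CCND3 and RB1 lie inside their genes as GENCODE 44 draws them, downstream of the outermost start there, whereas the CCNE1 and CDK6 stretches end at the base before it. The E2F octamers TTTGGCGC, TTTGCCGC, TTTCGCGC and TTTCCCGC, read on both strands, were in 3.31% of promoters and in none of the windows of these 6 genes. CCND1, CCND2, CCNE2 and CDK2 had no entry. Such a match is a description of letters and not of a bound site.

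**Figure D1:**
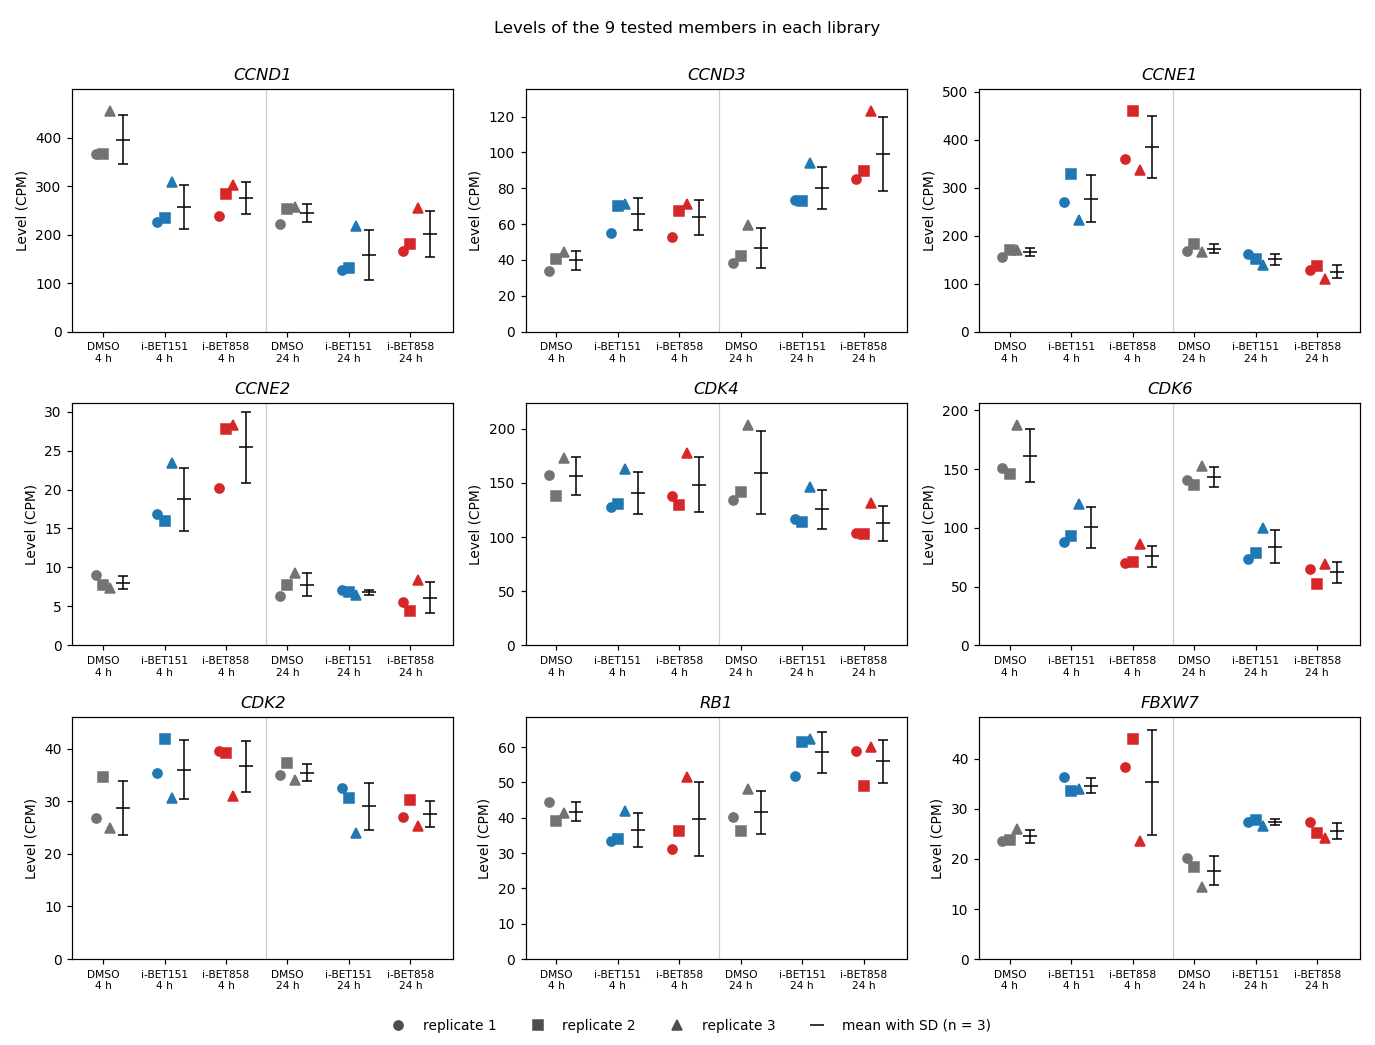
Level of each of the 9 tested genes in CPM (vertical axes from 0) in the 18 libraries, grouped by treatment and time, with a symbol for each replicate and the mean with SD (n = 3) beside each group. CCNE1 and CCNE2 stand above DMSO at 4 h but not at 24 h, while CDK6 stands below and CCND3 above DMSO at both times.

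The first question of the design is what each inhibitor did to these genes at each time. At 4 h the E cyclins and CCND3 rose and CCND1 and CDK6 fell with either drug, while CDK4 and RB1 did not pass the test. At 24 h CCNE1 was no longer raised and was lower than DMSO with i-BET858. CCND3 was still higher and CDK6 still lower, and RB1 and FBXW7 were higher. FBXW7 did not pass at 4 h, though its log2 values were alike at both times. They were 0.53 and 0.50 at 4 h and 0.50 and 0.61 at 24 h with i-BET858 and i-BET151. With i-BET858, 3 genes rose and 2 fell at 4 h, 5 of 9 tested where 30.8% of 17192 genes were called (14.5% higher, 16.3% lower), and at 24 h 3 rose and 4 fell, 7 of 9 where 41.7% of 17157 genes were called (20.5% higher, 21.3% lower). With i-BET151, 3 rose and 2 fell at 4 h, 5 of 9 against 16.2% of all genes (7.81% higher, 8.43% lower), and 3 rose and 2 fell at 24 h, 5 of 9 against 33.8% (17.2% higher, 16.6% lower). The median log2 fold change of the 9 was 0.35 and 0.32 at 4 h and −0.39 and −0.22 at 24 h for i-BET858 and i-BET151, where all genes had 0.02, 0.01, −0.01 and 0.00. The drugs were compared with the same DMSO libraries, so their results are not independent. Scaling by total counts instead of TMM moved the median of all genes with i-BET858 at 4 h from 0.02 to −0.14 and the share of rises among called genes from 47.1 to 32%, and changed none of the 5 calls.

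**Figure D2:**
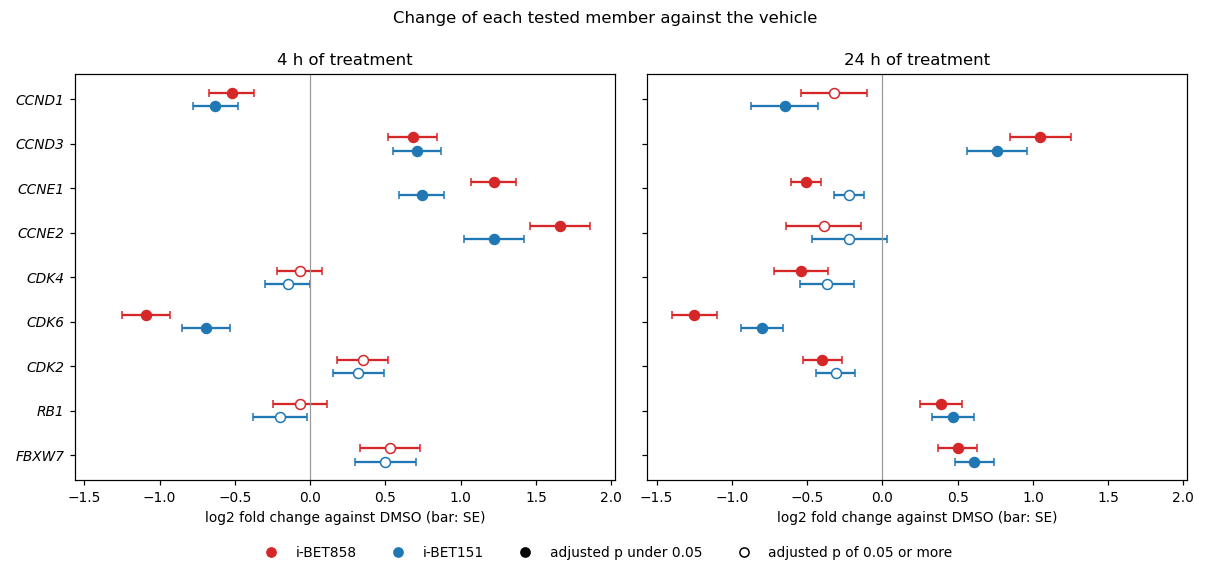
The log2 fold change against DMSO (horizontal axis, bars are SE) of the 9 tested genes at 4 h (left) and 24 h (right), with filled points where the adjusted p was under 0.05. The E cyclins move from right of the line at 4 h to left of it at 24 h, whereas CDK6 stays at −1.09 and −1.25 with i-BET858.

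CCNE1 encodes cyclin E1, the main partner of CDK2 in late G1. With DMSO at 4 h its level was 156, 169 and 171 CPM in replicates 1, 2 and 3. With i-BET151 it was 270.1, 329 and 233 CPM, and under i-BET858 it was 359, 459 and 336 CPM. The 3 groups did not overlap, and the lowest i-BET858 library stood above the highest i-BET151 library. The rise was 2.33-fold with i-BET858 (log2 fold change 1.22 ± 0.15, SE, adjusted p = 0.000121 by edgeR) and 1.67-fold with i-BET151 (0.74 ± 0.15, adjusted p = 0.00636).

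At 24 h CCNE1 had 169, 183 and 167 CPM with DMSO. It had 162, 151 and 139 CPM with i-BET151 and 128, 136 and 110.2 CPM with i-BET858. Every library of either drug lay below every DMSO library. The fall passed the test with i-BET858 (−0.51 ± 0.10, adjusted p = 0.00258 by edgeR) and not with i-BET151 (−0.22 ± 0.10, adjusted p = 0.126), where it passed with the replicate number as a block (adjusted p = 0.04) and without replicate 3 (−0.21, 0.0285), but not in the other 16 of 18 alternatives, where it reached 0.304. The i-BET858 calls for CCNE1 at both times and the i-BET151 call at 4 h held in 18 of 18 alternatives. DMSO itself differed by 0.06 ± 0.13 between the times.

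The change of effect was tested directly, as the interaction of drug and time when the 18 libraries were modelled together. The effect of i-BET858 on CCNE1 was lower at 24 than at 4 h by a log2 difference of −1.69 (SE 0.19, adjusted p = 7.17e-06 by edgeR) and that of i-BET151 by −0.95 (SE 0.19, adjusted p = 0.00301). CCNE2 gave −2.01 (SE 0.32, adjusted p = 0.000171) and −1.41 (SE 0.32, adjusted p = 0.00682). CDK2, the kinase both cyclins bind, gave −0.71 (SE 0.22, adjusted p = 0.0233) with i-BET858. These 3 genes were the ones called for i-BET858, among 27.2% of 18154 genes (12.6% lower), and the E cyclins the ones called for i-BET151, among 13.8% (6.82% lower). With the replicate block 6 genes passed for i-BET858, adding CCND3 (0.42, adjusted p = 0.0247), CDK4 (−0.41, 0.00962) and RB1 (0.53, 0.0217), and 4 for i-BET151, adding CDK2 (−0.62, 0.00511) and RB1 (0.71, 0.0055), where the block called 38.3% and 25.2% of all genes. Without replicate 3 RB1 passed for each drug (0.79, adjusted p = 0.0037, and 0.85, 0.0046) and CDK2 for i-BET151 (−0.55, 0.043), where 40.6% and 26.3% of all genes were called. Over the alternatives the adjusted p of these 5 added calls reached 0.562, 0.531, 0.298, 0.189 and 0.137, and they passed in 1, 1, 3, 6 and 8 of 25 alternatives. The passes for i-BET151 included DESeq2 (0.0258) and at least 10 counts in every library (0.0353) for CDK2, and scaling by total counts (0.0335) and no filter (0.0301) for RB1. The 4 calls of the E cyclins held in 25 of 25 alternatives, and the CDK2 call in 17 of 25. With a fold change of at least 2 also required, the calls of CCNE1 for i-BET151 and of CDK2 for i-BET858 were lost.

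CCNE2 encodes cyclin E2, a close relative of cyclin E1. It was far less abundant, with 8.995, 7.754 and 7.394 CPM in DMSO at 4 h. It had 16.84, 15.96 and 23.42 CPM with i-BET151 and 20.21, 27.75 and 28.25 CPM with i-BET858. No treated library overlapped DMSO, whereas 1 i-BET151 library lay above the lowest i-BET858 library. The rises were 3.17-fold with i-BET858 (1.66 ± 0.20, adjusted p = 0.000118 by edgeR) and 2.33-fold with i-BET151 (1.22 ± 0.20, adjusted p = 0.00201), each in 18 of 18 alternatives.

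At 24 h CCNE2 had 6.299, 7.709 and 9.264 CPM with DMSO, 7.076, 6.902 and 6.401 with i-BET151 and 5.571, 4.416 and 8.332 with i-BET858. The groups overlapped. Neither drug passed the test (i-BET858 −0.39 ± 0.25, adjusted p = 0.238, i-BET151 −0.22 ± 0.25, adjusted p = 0.548, by edgeR). Without i-BET858 replicate 3, its highest library, the i-BET858 value was −0.65 with an adjusted p of 0.0402, and without all replicate 3 libraries it was −0.51 (0.0184). Over 18 alternatives the adjusted p ranged from 0.0184 to 0.576. INTS8, whose exons overlap CCNE2 on the opposite strand, changed by −0.17 ± 0.26 (adjusted p = 0.671) at 4 h and by 0.81 ± 0.18 (adjusted p = 0.00397) at 24 h with i-BET858. The part of shared reads in the CCNE2 values was not tested.

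Per kilobase and within the same library, CCNE1 exceeded CCNE2 by 37.1 ± 5.36 times (SD, n = 3) in DMSO at 4 h. The ratio was 27.8 ± 9.58 with i-BET151 and 27.5 ± 5.53 with i-BET858 at 4 h, and 40.9 ± 7.99, 39.6 ± 1.11 and 39.9 ± 15.7 at 24 h in DMSO, i-BET151 and i-BET858. The ranges overlapped with DMSO for each drug at each time, at 4 h with 17.8 to 36.8 for i-BET151 and 21.3 to 31.8 for i-BET858 against 31.1 to 41.3. CCNE1 was the more abundant E cyclin in all 18 libraries.

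The neighbours of CCNE1 at 19q12 are often gained with it in tumours, so they were read beside it. Their copy number was not measured here. URI1, POP4, C19orf12, UQCRFS1 and PLEKHF1 stood at percentiles 97.6, 97.4, 93.6, 90.2 and 78.3 per kilobase in DMSO at 4 h. VSTM2B, with a mean of 0 CPM there, was not tested. None of the 5 tested neighbours rose, and 3 fell with i-BET858 at 4 h, 2 with i-BET151, and 3 with each drug at 24 h, where 16.3%, 8.43%, 21.3% and 16.6% of all genes fell. C19orf12, of mitochondrial membranes, went from 204 ± 13.4 CPM (SD, n = 3) in DMSO to 84.24 ± 15 CPM with i-BET858 at 4 h (log2 −1.27 ± 0.15, SE, adjusted p = 7.86e-05 by edgeR). POP4, a subunit of RNase P, fell by 0.75 on the log2 scale (SE 0.15, adjusted p = 0.00289), and UQCRFS1, of respiratory complex III, by 0.46 (SE 0.15, adjusted p = 0.0383). URI1, the nearest tested neighbour downstream, gave −0.14 ± 0.09 (adjusted p = 0.268), and PLEKHF1 −0.14 ± 0.14 (adjusted p = 0.511). CCNE1, between them, was the sole rise among the 6 tested genes of the region at 4 h. Without replicate 3 the neighbours that fell numbered 3, 2, 4 and 3 of 5 in the same order, where 21.5%, 13.5%, 31% and 28.1% of all genes fell.

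**Figure D3:**
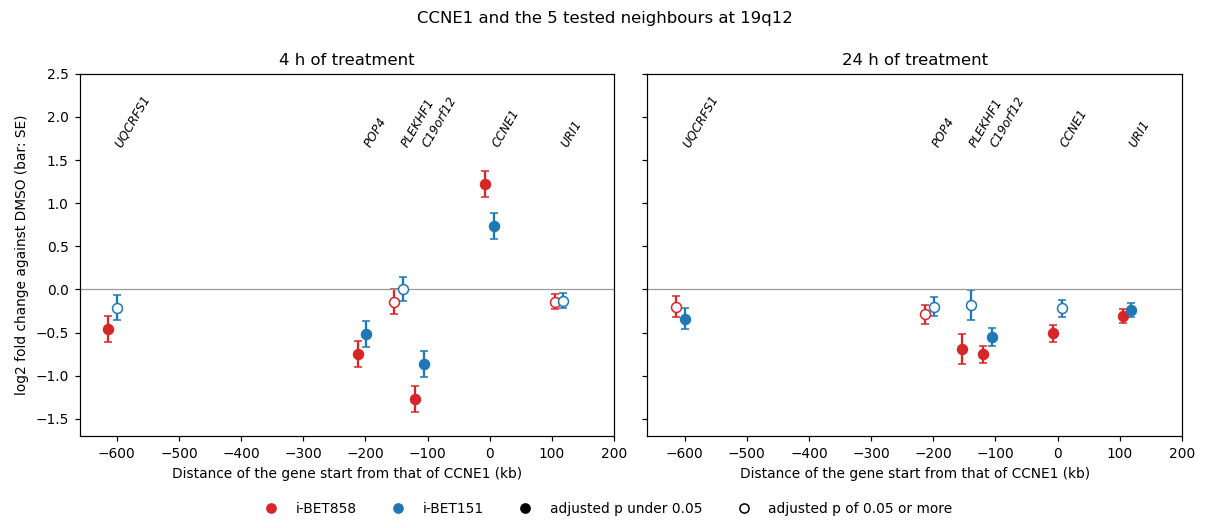
The log2 fold change against DMSO (vertical axis, bars are SE) of CCNE1 and its 5 tested neighbours by distance of the gene start from that of CCNE1 in kb, at 4 h (left) and 24 h (right), the drugs drawn slightly apart. At 4 h CCNE1 lies at 1.22 and 0.74, and no neighbour lies above 0.01.

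CCND1 encodes cyclin D1, the most abundant D cyclin of these cells. At 4 h it had 366, 367 and 454 CPM with DMSO. It had 227, 234 and 309 CPM with i-BET151 and 239, 285 and 302 CPM with i-BET858. All treated libraries lay below all DMSO libraries, and the drugs overlapped. CCND1 fell by 0.63 on the log2 scale with i-BET151 (SE 0.15, adjusted p = 0.0153 by edgeR) and by 0.52 with i-BET858 (SE 0.15, adjusted p = 0.0212). The i-BET858 call was lost without i-BET858 replicate 1 (−0.43) or DMSO replicate 3 (−0.42), and the i-BET151 call without i-BET151 replicate 1 (−0.55) or 2 (−0.56) or DMSO replicate 3 (−0.52), with adjusted p up to 0.0823 and 0.0681.

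CCND1 was already lower in DMSO at 24 h, with 223, 253 and 256 CPM, below each DMSO library of 4 h (−0.70 ± 0.20, SE). This difference had an adjusted p of 0.213 by edgeR and passed with the replicate block (0.00167), without a filter on low counts (0.000328) and without replicate 3 (0.0267), but not in the other 22 of 25 alternatives, where it reached 0.617. With the drugs at 24 h CCND1 had 126, 132 and 217 CPM (i-BET151) and 166, 181 and 255 CPM (i-BET858). Replicate 3 was the highest library of each drug. CCND1 fell with i-BET151 (−0.65 ± 0.22, adjusted p = 0.0432), a call that held in 11 of 18 alternatives and was lost without any DMSO library, without i-BET151 replicate 1 (−0.51) or 2 (−0.52) or without i-BET858 replicate 2, and with only those groups fitted. With i-BET858 the value was −0.32 ± 0.22 (adjusted p = 0.273), and it passed with the block (0.0175) and without replicate 3 (−0.48, 0.000201), in 2 of 18 alternatives, with adjusted p up to 0.578.

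CCND3 encodes cyclin D3, which moved in the opposite direction to CCND1. At 4 h it had 33.98, 40.78 and 44.68 CPM with DMSO. It had 55.13, 69.94 and 71.27 CPM with i-BET151 and 52.82, 67.41 and 70.98 CPM with i-BET858. All treated libraries exceeded all DMSO libraries, and the drugs overlapped. The rises were 1.61-fold with i-BET858 (0.68 ± 0.16, adjusted p = 0.00757 by edgeR) and 1.64-fold with i-BET151 (0.71 ± 0.16, adjusted p = 0.0117).

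At 24 h CCND3 had 38.04, 42.21 and 59.28 CPM with DMSO, 73.68, 73.09 and 93.86 with i-BET151 and 85.24, 89.45 and 122.9 with i-BET858. Replicate 3 was again the highest of each group, and the treated libraries did not overlap DMSO. CCND3 rose 2.07-fold with i-BET858 (1.05 ± 0.20, adjusted p = 0.00171 by edgeR) and 1.7-fold with i-BET151 (0.76 ± 0.20, adjusted p = 0.0133). The i-BET858 calls held in 18 of 18 alternatives at each time, and the i-BET151 calls in 17 of 18 at 4 h (lost without DMSO replicate 1) and 16 of 18 at 24 h (lost without DMSO replicate 1 or 2). With a fold change of at least 2 also required, CCND3 kept only the i-BET858 call at 24 h.

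The make-up of the D cyclins was read within each library. As a share of the summed CPM per kilobase of the 3 D cyclins, CCND3 made up 7.13, 8.41 and 7.52% with DMSO at 4 h. It made up 16.7, 19.8 and 16% with i-BET151 and 15.4, 16.4 and 16.3% with i-BET858. At 24 h it took 12.4, 12.1 and 16% with DMSO, 32.5, 31.5 and 26.3% with i-BET151 and 29.8, 29 and 28.5% with i-BET858. The treated libraries did not overlap DMSO at either time. The sum itself was 82.69, 84.16 and 103.1 CPM per kb with DMSO at 4 h and 53.44, 60.51 and 64.12 at 24 h, and i-BET858 gave 59.38, 71.52 and 75.7 and then 49.71, 53.6 and 74.93. The sums of i-BET858 and DMSO did not overlap at 4 h and did overlap at 24 h. With i-BET151 the sums were 57.27, 61.21 and 77.29 at 4 h, all below DMSO. At 24 h they were 39.3, 40.34 and 61.89, with only replicate 3 in the DMSO range. By union exon length (4761 bases for CCND1 and 5761 for CCND3), CCND1 remained the major D cyclin in all 18 libraries, with at least 67.5% of the sum. Other transcript lengths would give other shares.

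**Figure D4:**
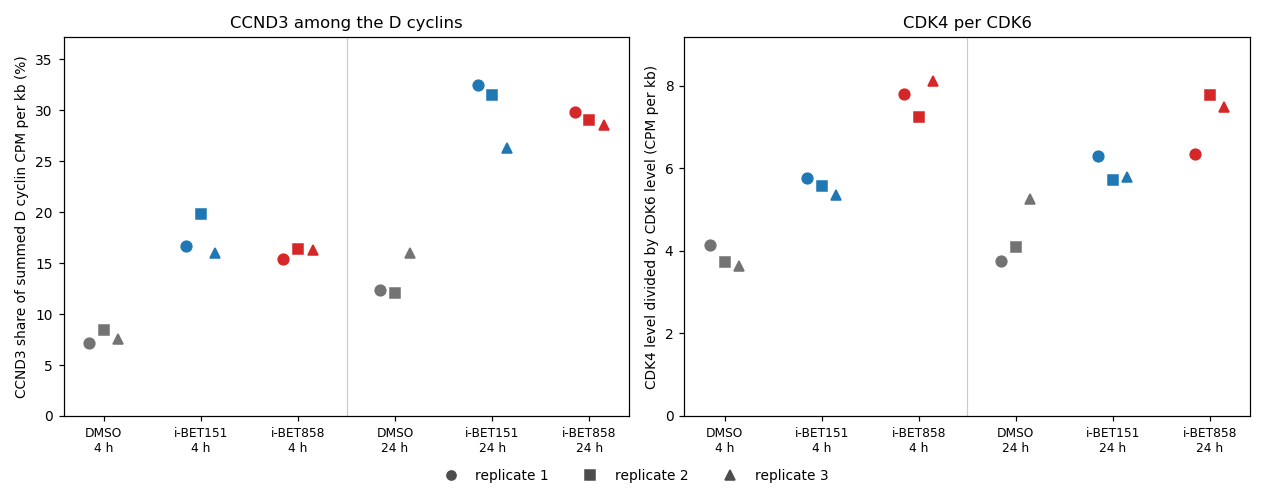
Left, the share of CCND3 in the summed D cyclin CPM per kb (%), and right, the level of CDK4 divided by that of CDK6 (each in CPM per kb), in each of the 18 libraries, with a symbol for each replicate and axes from 0. Both quantities are higher in all treated libraries than in the DMSO libraries of the same time, with CDK4 per CDK6 at 7.72 (mean of 3) with i-BET858 and 3.84 with DMSO at 4 h.

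CDK6 and CDK4 encode the kinases that D cyclins activate. Of the 9 tested genes, CDK6 was the one that fell with both drugs at both times without the replicate block, and with the block or without replicate 3 CCND1 did so too. With DMSO at 4 h CDK6 had 151, 146 and 187 CPM. It had 87.73, 92.95 and 120.5 CPM with i-BET151 and 69.96, 70.63 and 86.4 CPM with i-BET858. Each i-BET858 library lay below each i-BET151 library, and these below each DMSO library. CDK6 fell to 0.47 times the DMSO level with i-BET858 (−1.09 ± 0.16, adjusted p = 0.000377 by edgeR) and to 0.621 times with i-BET151 (−0.69 ± 0.16, adjusted p = 0.0125). The i-BET151 call at 4 h was lost without i-BET151 replicate 1 (−0.60) or 2 (−0.63), with adjusted p up to 0.0579.

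At 24 h CDK6 had 141, 137 and 153 CPM with DMSO, 73.29, 78.72 and 99.65 with i-BET151 and 64.63, 52.24 and 69.43 with i-BET858. The 3 groups were again ordered without overlap. The log2 fold changes were −1.25 ± 0.15 (adjusted p = 6.93e-05 by edgeR) and −0.80 ± 0.14 (adjusted p = 0.0017), and both held in 18 of 18 alternatives. The change of effect between the times was −0.12 with i-BET858 (95% interval −0.57 to 0.34) and −0.09 with i-BET151 (−0.55 to 0.36), with adjusted p of 0.749 and 0.841.

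CDK4 had 158, 138 and 173 CPM with DMSO at 4 h, 128, 131 and 163 with i-BET151 and 138, 129.5 and 177 with i-BET858. The groups overlapped throughout. The values were −0.07 ± 0.15 with i-BET858 (adjusted p = 0.779 by edgeR) and −0.15 ± 0.15 with i-BET151 (adjusted p = 0.564). At 24 h CDK4 had 134, 141 and 203 CPM with DMSO, 117, 114 and 146 with i-BET151 and 104, 103 and 131 with i-BET858. Replicate 3 was the highest of each group, and the i-BET858 libraries lay below all DMSO libraries.

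CDK4 fell with i-BET858 at 24 h (−0.54 ± 0.18, adjusted p = 0.0331 by edgeR). This call was lost without i-BET858 replicate 1 or 2 (−0.49 each) and without DMSO replicate 3, where the value was −0.30 with an adjusted p of 0.144. With i-BET151 it gave −0.37 ± 0.18 (adjusted p = 0.143). It passed with the block (0.00359), without replicate 3 (−0.30, 0.00311) and without the filter on low counts (0.0266), 3 of 18 alternatives, with adjusted p up to 0.55. TSPAN31, which overlaps CDK4 by 1369 exon bases on the opposite strand, rose at 24 h by 0.64 with each drug (SE 0.11, adjusted p = 0.00106 and 0.00158). The part of shared reads in the CDK4 values was not tested.

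Within a library, CDK4 exceeded CDK6 per kilobase by 3.84 ± 0.258 times (SD, n = 3) in DMSO at 4 h, 5.56 ± 0.202 with i-BET151 and 7.72 ± 0.436 with i-BET858. At 24 h the ratio was 4.37 ± 0.786, 5.94 ± 0.315 and 7.21 ± 0.756. These ratios did not overlap between the 3 groups at either time.

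CDK2, the partner of cyclin E, moved little at 4 h, with 26.83, 34.5 and 24.88 CPM with DMSO, 35.38, 41.8 and 30.67 with i-BET151 and 39.61, 39.23 and 30.95 with i-BET858. Treated and DMSO libraries overlapped in 1 of 9 pairs for each drug. The values of 0.35 ± 0.17 (i-BET858) and 0.32 ± 0.17 (i-BET151) had adjusted p of 0.155 and 0.252 by edgeR. They passed with the replicate block (0.0141 and 0.0345) and under no other of 18 alternatives, where they reached 0.511 and 0.606.

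At 24 h CDK2 had 35.01, 37.2 and 34.03 CPM with DMSO, 32.52, 30.56 and 23.89 with i-BET151 and 27.01, 30.16 and 25.32 with i-BET858. No treated library overlapped DMSO. CDK2 fell with i-BET858 (−0.40 ± 0.13, adjusted p = 0.0283 by edgeR), in 11 of 18 alternatives and not without DMSO replicate 1 or 2, i-BET151 replicate 2 or i-BET858 replicate 1 or 3, nor without the filter on low counts or with all 18 libraries fitted (adjusted p up to 0.0973). With i-BET151 the value was −0.31 ± 0.13 (adjusted p = 0.0903), and it passed with the block (0.0265), without replicate 3 (−0.23, 0.0491) and by DESeq2 (0.0463), 3 of 18 alternatives, with adjusted p up to 0.222.

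RB1, whose protein the kinases inactivate, had 44.45, 39.18 and 41.45 CPM with DMSO at 4 h, 33.43, 33.95 and 42.01 with i-BET151 and 31.04, 36.38 and 51.42 with i-BET858. The groups overlapped, and the replicate 3 library of i-BET858 was the highest. The values were −0.07 ± 0.18 (adjusted p = 0.821 by edgeR) and −0.20 ± 0.18 (adjusted p = 0.539). At 24 h RB1 had 40.34, 36.19 and 48.13 CPM with DMSO, 51.87, 61.42 and 62.29 with i-BET151 and 59.02, 48.88 and 59.99 with i-BET858. All treated libraries stood above all DMSO libraries. RB1 rose by 0.47 with i-BET151 (SE 0.14, adjusted p = 0.0234) and by 0.39 with i-BET858 (SE 0.14, adjusted p = 0.0439). The i-BET151 call held in 14 of 18 alternatives, and was lost without DMSO replicate 1 or 2 or i-BET151 replicate 2 or 3. The i-BET858 call held in 11 of 18, and was lost without DMSO replicate 1 or 2, i-BET151 replicate 2, or i-BET858 replicate 1 or 3, with scaling by total counts and with only those groups fitted, with adjusted p up to 0.166.

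FBXW7, which turns over cyclin E, had 23.64, 23.75 and 26.04 CPM with DMSO at 4 h and 36.35, 33.62 and 33.87 with i-BET151. With i-BET858 it had 38.26 and 43.92 CPM in replicates 1 and 2 and 23.59 in replicate 3, which lay below every DMSO library. The values were 0.53 ± 0.20 with i-BET858 (adjusted p = 0.0618 by edgeR) and 0.50 ± 0.20 with i-BET151 (adjusted p = 0.116). Without i-BET858 replicate 3 they were 0.75 (adjusted p = 0.00204) and 0.50 (0.0194), and without all replicate 3 libraries 0.79 (0.000888) and 0.55 (0.015). With the replicate block they passed as well (0.0215 and 0.0313), and the i-BET858 value also by DESeq2 (0.033), without the filter (0.0274), with at least 10 counts in every library (0.0465) and with all 18 libraries fitted (0.0255), 7 of 18 alternatives in all. The i-BET151 value passed in 4 of 18, the last with only those groups fitted (0.0205). The adjusted p ranged from 0.000888 to 0.248 and from 0.015 to 0.274 over 18 alternatives each.

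At 24 h FBXW7 had 20.08, 18.45 and 14.48 CPM with DMSO, 27.4, 27.85 and 26.65 with i-BET151 and 27.27, 25.24 and 24.26 with i-BET858. The treated libraries did not overlap DMSO. FBXW7 rose by 0.61 with i-BET151 (SE 0.13, adjusted p = 0.00443 by edgeR, in 18 of 18 alternatives) and by 0.50 with i-BET858 (SE 0.13, adjusted p = 0.0101, in 17 of 18, lost with scaling by total counts at 0.40 and 0.0525). Neither rise (1.52-fold and 1.41-fold) reached the rule of a fold change of at least 2. Between the DMSO groups FBXW7 gave −0.47 ± 0.17 from 4 to 24 h (adjusted p = 0.374), with every 24 h library below every 4 h library.

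The direct comparison of i-BET858 with i-BET151, given at the same 1 µM and the same times, asks whether one drug moved a gene further. Of the 9 genes, 0 passed at 4 h, where 0.971% of all genes were called, and 0 at 24 h, where 0.21% were called, by edgeR. At an unadjusted p under 0.05 there were 3 at 4 h and 2 at 24 h, where 2042 of 17192 and 1953 of 17157 genes fell under it. DESeq2 called 0 of the 9 at each time, where it called 4.43% and 3.19% of all genes. Of all genes called, 42.5% at 4 h and 44.4% at 24 h were higher with i-BET858, shares that were 16.6 and 26.8% with scaling by total counts and, at 24 h, 76.9% with DESeq2 size factors. The difference for CCNE1 was 0.48 at 4 h (95% interval 0.15 to 0.81, adjusted p = 0.178), higher with i-BET858 in 9 of 9 pairs of libraries, and −0.29 at 24 h (−0.52 to −0.06, adjusted p = 0.309), lower in 9 of 9. For CDK6 it was −0.40 at 4 h (−0.75 to −0.06, adjusted p = 0.316) and −0.45 at 24 h (−0.77 to −0.13, adjusted p = 0.252), lower in 9 of 9 pairs each time. With the replicate block CCNE1 (adjusted p = 0.00451) and CDK6 (0.00789) passed at 4 h, among 9.63% of all genes, and CDK6 (0.0203) at 24 h, among 4.37%. Over 18 alternatives their adjusted p reached 0.45, 0.578 and 0.576. For CCNE2 at 4 h the difference was 0.44 (0.01 to 0.88, adjusted p = 0.405).

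For the other genes the drugs could not be told apart at this depth and number of libraries. CCND3 differed by −0.03 at 4 h (95% interval −0.38 to 0.32) and 0.29 at 24 h (−0.15 to 0.73), and CCND1 by 0.11 (−0.22 to 0.44) and 0.32 (−0.16 to 0.81). CDK2, CDK4, RB1 and FBXW7 differed by 0.03, 0.08, 0.13 and 0.03 at 4 h and by −0.09, −0.17, −0.08 and −0.11 at 24 h. Without replicate 3 CCND1 passed at 24 h (0.44, adjusted p = 0.00764), higher with i-BET858, as did CDK6 (−0.37, adjusted p = 0.0439). Intervals of this width do not show that the compounds act alike.

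Between the DMSO groups of 24 and 4 h, 0 of the 9 genes passed by edgeR, where 0.0386% of 18154 genes were called. CCND1 and FBXW7 were the 2 at an unadjusted p under 0.05, where 1664 of the 18154 genes fell under it. DESeq2 called 0 of the 9, where it called 1.12% of all genes. The remaining 7 genes differed by −0.17 (CDK6) to 0.30 (CDK2) on the log2 scale.

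Genes that work around these 10 were read from lists of the same pathway, with counts from the fit of all replicates without the replicate block unless stated. The CDK inhibitors, whose proteins block cyclin-CDK pairs, rose in 5 of 7 genes with i-BET858 at 4 h and 3 with i-BET151, with no fall, and in 4 of 7 with 1 fall for each drug at 24 h. Of all genes, 14.5% and 7.81% rose at 4 h and 20.5% and 17.2% at 24 h with i-BET858 and i-BET151. Their median log2 fold change was 1.11 and 0.97 with i-BET858 at 4 and 24 h, and 0.46 and 0.35 with i-BET151. CDKN1A, which encodes p21 and inhibits cyclin E with CDK2, gave 4.27 ± 0.27 with i-BET858 at 4 h (adjusted p = 1.68e-06 by edgeR) and 3.60 ± 0.17 at 24 h (5.54e-07). CDKN2B, an inhibitor of CDK4 and CDK6, gave 1.99 ± 0.13 (2.07e-06) and 0.97 ± 0.09 (1.19e-05). CDKN1B, which encodes p27, gave −0.25 ± 0.14 (0.209) and 0.06 ± 0.10 (0.673). CDKN2A, the most abundant of the 7 by CPM in DMSO, gave 0.44 ± 0.11 (0.00989) with i-BET858 at 4 h. At 24 h it had 435.7 ± 127 CPM (SD, n = 3) with DMSO, 225.7 ± 30.2 with i-BET151 and 237.7 ± 32.6 with i-BET858. Each treated library lay below each DMSO library.

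Among 10 E2F and DP factors, of which E2F1, E2F2 and E2F3 are the classical partners of the RB1 protein, 5 fell and 0 rose with i-BET858 at 4 h, 4 fell with i-BET151, and 5 fell with each at 24 h, with 1 rise for i-BET858. Of all genes, 16.3% and 8.43% fell at 4 h and 21.3% and 16.6% at 24 h with i-BET858 and i-BET151. Their median log2 fold change was −0.28 at 4 h and −0.36 at 24 h for i-BET858, against −0.25 and then −0.24 for i-BET151. E2F2 (−1.23 ± 0.25, adjusted p = 0.00349 by edgeR) and E2F8 (−1.33 ± 0.17, 0.000155), a repressor that does not bind RB1, fell with i-BET858 at 4 h, as did E2F4, E2F5 and E2F6. E2F1 gave 0.12 ± 0.12 (0.497) and −0.12 ± 0.11 (0.408) at 4 and 24 h. RBL1, a relative of RB1, fell by 1.18 at 4 h (SE 0.19, adjusted p = 0.000762) and gave −0.13 ± 0.12 (0.414) at 24 h with i-BET858.

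Of 14 E2F target genes of S-phase entry, 3 rose and 3 fell with i-BET858 at 4 h, and 0 rose and 7 fell at 24 h. With i-BET151 2 rose and 1 fell at 4 h, and 5 fell at 24 h. Without replicate 3, 2 rose and 9 fell with i-BET858 at 24 h, and 3 rose and 7 fell with i-BET151. In those fits 5151 and 4503 of 17297 genes rose, and 31% and 28.1% fell. The 3 and 3 of 14 at 4 h stand near the 14.5% of all genes that rose and 16.3% that fell with i-BET858, where 7.81% rose and 8.43% fell with i-BET151, and at 24 h 21.3% of all genes fell with i-BET858 and 16.6% with i-BET151. Their median log2 fold change was 0.01 and −0.33 with i-BET858 at 4 and 24 h, where all genes had 0.02 and −0.01. CDC6, a loader of the replicative helicase, rose by 0.62 at 4 h (SE 0.12, adjusted p = 0.00285 by edgeR) and gave −0.01 ± 0.09 (0.93) at 24 h. MCM5, a subunit of that helicase, gave −0.33 ± 0.17 (0.169) and then −1.10 ± 0.13 (8.29e-05). The other rises at 4 h were PCNA (0.61) and TK1 (0.81), and the falls were MCM2 (−0.57), MCM3 (−0.44) and CDT1 (−0.65).

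Of 7 genes of the ubiquitin ligases that act on cyclin E and CDK inhibitors, 2 rose and 1 fell with i-BET858 at each time, numbers near those of all genes (14.5% higher and 16.3% lower at 4 h, 20.5% and 21.3% at 24 h). SKP1, the adaptor that holds FBXW7 in its ligase, rose by 0.85 and 0.93 (SE 0.20 and 0.13, adjusted p = 0.00778 and 0.000218 by edgeR). SKP2, the subunit that recognises p27, fell by 0.38 and 0.82 (SE 0.13 and 0.12, adjusted p = 0.0426 and 0.000325). CUL1, their scaffold, gave −0.34 ± 0.16 (0.145) and −0.37 ± 0.18 (0.119). Of the CDK-activating kinase and CDC25A, 1 of 4 genes fell with i-BET858 at 24 h, near the 21.3% of all genes that fell. In the other 3 comparisons with DMSO 0 passed. All genes called there were 30.8% with i-BET858 at 4 h, and 16.2% and 33.8% with i-BET151 at 4 and 24 h. CCNA2, the S-phase cyclin, gave −0.10 ± 0.13 (0.623) and 0.00 ± 0.18 (0.994), whereas CCNA1, mainly known from the germ line, rose by 2.76 at 24 h (SE 0.20, adjusted p = 3.43e-06).

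**Figure D5:**
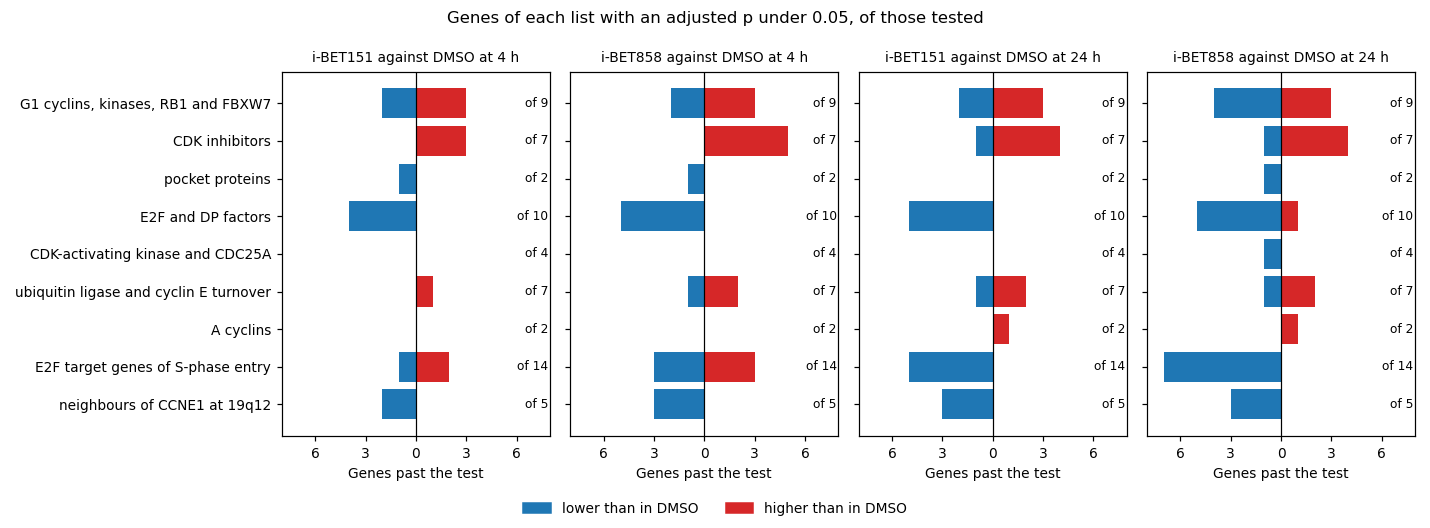
Number of genes of each list past the test (adjusted p under 0.05), lower than DMSO to the left of 0 and higher to the right, for each drug and time, with the number tested at the right edge. CDK inhibitors lie mostly to the right, E2F and DP factors mostly to the left, and the E2F target genes shift to the left from 4 h (3 higher and 3 lower with i-BET858) to 24 h (7 lower). Without replicate 3 these E2F target numbers were 3 higher and 5 lower at 4 h, and 2 higher and 9 lower at 24 h.

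The genes whose log2 CPM followed each member most closely were found over the 18 libraries among 12704 candidates, as a description. For CCNE1 these were FSTL3 (Pearson r = 0.966), DUSP7 (0.944) and HSP90AB1 (0.94), which encode a secreted binder of activins, a phosphatase of MAP kinases and a cytosolic HSP90. The closest to CCNE2 was KDR (0.956), to CCND1 MALL (0.924), to CCND3 CTNNBIP1 (0.966) and to CDK6 MTMR1 (0.975). For CDK4 it was SCD5 (0.953), for CDK2 CCT3 (0.903), for RB1 LMBRD2 (0.929) and for FBXW7 CRY2 (0.933). All points of such a correlation share the 6 conditions and the replicate numbers, so genes that respond to the same treatment have a high r.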

How the data were processed

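The 18 libraries hold poly-A RNA from OVCAR-3 cells, read as pairs on a NovaSeq instrument. The values that the authors deposited are raw counts per gene, without normalization, in a table for each time point. Per the study's methods, reads were checked with FastQC, aligned to GRCh38 with STAR and counted by STAR's gene counting. The gene annotation and the strand setting are not given in the sources used here. Of 58825 gene identifiers, 58472 (99.4%) matched GENCODE 44, which gave symbols, positions and exon lengths. The time of a column was taken from the table that holds it.

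For each time point, the 3 treatments entered 1 quasi-likelihood fit of edgeR 4.0.16 (R 4.3.3) after TMM scaling and the default removal of genes with low counts. The change of effect and the DMSO groups came from a fit of all 18 libraries. P-values were Benjamini-Hochberg adjusted over all genes tested. SE were derived from the test statistic, intervals are 95% intervals, and the scripts were tested on simulated data. Levels per kilobase divide CPM by the union of exon bases of GENCODE 44, which may differ from the authors' annotation. Shares and ratios between genes depend on these lengths, and the transcripts used in these cells were not measured. Counts between replicates of a group differed by 4.47 to 72.6 times counting error (chi-square per degree of freedom, 18 pairs), so that no library was counted as a repeat of another. These values cannot show that the replicates were separate cultures, which rests on the study's statement of 3 biological replicates.

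Across genes, the deviations from the group means of libraries that share a replicate number correlated at 0.125 to 0.344 at 4 h and 0.145 to 0.33 at 24 h, and libraries with other numbers −0.311 to 0.216 and −0.304 to 0.285. Because every correlation of the same number lay above 0.1, the replicate number was fitted as a block, a pairing assumed from the data and not from the labels. The ranges overlapped, as libraries with other numbers reached 0.216 at 4 h and 0.285 at 24 h, above the lowest of the same number. These correlations do not show that each number pairs its libraries, because the replicate that stood apart in every condition could alone give positive values. Values with the block rest on this assumed pairing. The block is given where it changed the call of a member, and the counts of the other lists are without it.

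The members, lists and tests were chosen with earlier results of these data known, and the genes whose exons overlap a member were listed after the annotation was read. All 10 members were named in each comparison, with the 3 genes most alike to CCNE1 and the 1 most alike to each other tested member (average log2 CPM of at least 1, prior count of 2). The alternatives were DESeq2 1.42.0, its size factors in edgeR, scaling by total counts, no filter, at least 10 counts in every library, a fold change of at least 2, only the groups compared, all 18 libraries, the replicate block, replicate 3 left out and each library left out in turn. Where a call is counted over the alternatives, the fold-change rule is not among them and is given separately.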

Additional observations from a re-analysis of the deposited data

Results flagged for a closer look

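The effect of a drug differed between 4 and 24 h, by the drug-by-time interaction, for 3 of the 9 tested genes. Of all 18154 genes, 27.2% were called for i-BET858 and 13.8% for i-BET151. With i-BET858 the log2 difference between the times was −1.69 for CCNE1, −2.01 for CCNE2 and −0.71 for CDK2. With i-BET151 it was −0.95 for CCNE1 and −1.41 for CCNE2. The E cyclins kept these calls in all 25 alternatives counted, leaving out any library included. With a fold change of at least 2 also required, CCNE1 lost its i-BET151 call (−0.95) and CDK2 its i-BET858 call (−0.71). The CDK2 call did not hold without DMSO replicate 1 or 3 at 4 h, i-BET858 replicate 1 or 2 at 4 h, DMSO replicate 2 at 24 h, i-BET858 replicate 1 or 3 at 24 h, or with scaling by total counts, where its log2 difference lay between −0.70 and −0.61.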

How the results depend on the processing

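Of 1647 values of a member in a comparison under an alternative, 1548 kept their side of the threshold, 47 lost the call and 52 gained it. Of the 1548, 65 changed sign, all called in neither fit, such as RB1 with i-BET858 at 4 h (−0.31 to 0.08), and 0 called values reversed. With a fold change of at least 2 also required, 3 members passed with i-BET858 at 4 h in place of 5, 1 with i-BET151 at 4 h in place of 5, 2 with i-BET858 at 24 h in place of 7, 0 with i-BET151 at 24 h in place of 5, and 1 for the change of the i-BET151 effect in place of 2, where this rule called 14.1, 7.1, 18.8, 13.7 and 6.7% of all genes. With the replicate block, 8 members passed with i-BET151 at 24 h, 2 and 1 between the drugs at 4 and 24 h in place of 0, 6 and 4 for the changes of the i-BET858 and i-BET151 effects in place of 3 and 2, and 1 between the DMSO groups in place of 0, where the block called 45.9, 9.63, 4.37, 38.3, 25.2 and 2.07% of all genes. The block changed no member call other than those given with the results. Without replicate 3, 8 members passed with i-BET151 at 24 h, 2 between the drugs at 24 h, 4 for the change of the i-BET151 effect and 1 between the DMSO groups, with 54.2, 7.29, 26.3 and 0.322% of all genes called. The last was also 1 without the filter. Leaving out 1 library at a time gave 4 to 6 members with i-BET858 and 3 to 6 with i-BET151 at 4 h, 4 to 7 and 2 to 5 at 24 h, and 2 to 4 for each change of effect, while the counts between the drugs and between the DMSO groups were 0 throughout. The shares of all genes called were then 23.2 to 33.7%, 9.44 to 18.3%, 32.7 to 44.9%, 23.8 to 35.1%, 21.5 to 27.9% and 8.45 to 14.3%, and at most 0.726% between the drugs and 0.0534% between the DMSO groups.

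Over all genes, the count called with i-BET151 at 4 h was 2791, against 5616 with the block and 4433 without replicate 3, and at 24 h 5797 against 9367 without replicate 3. For the change of the i-BET151 effect it was 2508, against 4580 with the block and 4735 without replicate 3. Between the drugs at 4 h 167 genes were called, 0 with only those groups fitted, 331 with scaling by total counts, 392 without replicate 3, 513 without the filter, 549 with all 18 libraries (31.1% of them higher), 761 by DESeq2 and 1655 with the block. At 24 h it was 36, against 1 with only those groups, 13 with DESeq2 size factors, 56 with scaling by total counts, 343 without the filter, 547 by DESeq2, 749 with the block and 1261 without replicate 3. Between the DMSO groups it was 7, against 4 and 5 with the other scalings, 58 without replicate 3, 161 without the filter, 204 by DESeq2 and 375 with the block, and 0, 0, 20, 36.2, 10.6, 27 and 24% of these were higher at 24 h. The cause of these differences was not tested. CCND2, with at most 2 counts in a library, was not tested.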
